A study of Mus musculus with 6 samples.

Results

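Solute carriers are the membrane proteins, named Slc with a family number, that move sugars, amino acids, ions, metals, vitamins, nucleotides and metabolites across the plasma membrane and organelle membranes. The set described here holds every probe set of the array whose single gene symbol began with Slc and a digit, apart from the bile acid importer Slc10a1. It comprised 182 probe sets for 150 genes in 40 families, out of 12422 probe sets other than controls and 8251 genes with a single symbol. RNA came from the livers of male wild-type mice of the C57BL/6J strain, 8 to 10 weeks old, with 1 mouse per array. The common bile duct of 3 mice was ligated and severed 1 day earlier (bile duct ligation, BDL, replicates 1, 12 and 3), which blocks the outflow of bile, and 3 mice had a laparotomy without ligation (sham, replicates 1, 2 and 3). All 6 mice had surgery and methoxyflurane anaesthesia, no unoperated mice are in this comparison, and whole liver was used, so the values mix hepatocytes with other liver cells. In whole liver, fewer cells of a type and less RNA per cell cannot be told apart.

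Carriers that use a sodium or proton gradient pull their substrate into the cell against its own gradient, uniporters let it follow that gradient, and exchangers trade a solute for another. In the liver, carriers of the sinusoidal membrane take up glucose, amino acids, fatty acids, nucleosides and organic ions from blood, and inner mitochondrial membrane carriers of family 25 feed the urea cycle, fatty acid oxidation and ATP synthesis. Families 30 and 39 move zinc out of and into the cytosol, and family 35 brings nucleotide sugars into the Golgi and endoplasmic reticulum (ER). Of the 150 genes, 3 carry such a symbol without being carriers: Slc9a3r1 and Slc9a3r2, which are scaffold proteins that bind membrane transporters, and Slc4a1ap, an adaptor protein.

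A signal below 152.7, the 25th percentile of all values, was set to that floor before log2 was taken, and where a gene had several probe sets, the brightest on average stands for it. Differences are BDL minus sham means of log2 signal with limma's moderated standard error (SE), n = 3 mice in each group. Of the 150 genes, 131 had at least 3 of 6 arrays above the floor and were tested, and 19 were not. The 2% trimmed mean was 1501 on each array, but the share of the 182 probe sets at or under the floor was 9.34% on sham replicate 1 and 18.7% to 24.2% on the other arrays. Low signals were higher on that array as a whole, with a 10th percentile of 135, beside 33.6 to 62.2 on the others. The hepatocyte gene Alb had signals of 125084 to 199675, and 6 of 6 hepatocyte markers were tested, with a median difference of 0.02. Of these, the plasma carrier protein gene Ttr, was lower in BDL without overlap, with a difference of -1.25 (SE 0.36), 2.38-fold. Among other cell types, the median was 0.47 for 6 endothelial markers, 0.26 for 5 stellate, -0.26 for 6 neutrophil, 0.06 for 2 cholangiocyte, -0.46 for 3 exocrine pancreas and -0.28 for 2 adipose markers. Lymphocyte markers, 6 on the array and 4 tested with a median of -0.86, summed to signals between 1804 and 2088 in BDL and between 2290.4 and 6391.8 in sham mice, highest on sham replicate 1. The part of these markers in the carrier results was not tested.

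Solute carrier genes were more often lower than higher in BDL livers, by small amounts, and none passed the adjusted threshold. With limma and Benjamini-Hochberg adjustment over 9542 probe sets, 0 of 131 tested genes had an adjusted p under 0.05, as had 0 (0.0%) of all tested probe sets. Their median log2 difference was -0.12, beside -0.01 over all tested probe sets. The median deviation of the 131 genes from their own 6-array means was -0.03, -0.12 and -0.04 on BDL replicates 1, 12 and 3. It was 0.13, 0.13 and -0.10 on sham replicates 1, 2 and 3. Sham replicate 3 lay below BDL replicates 1 and 3, so the groups overlapped on this measure. A positive difference was found for 51 genes (38.9%, beside 48.8% of all tested probe sets). At an unadjusted p under 0.05, 3 genes (2.29%) were higher, beside 3.4% of all tested probe sets, and 7 genes (5.34%) were lower, beside 2.39%. The BDL and sham signals did not overlap for 6 genes that were higher (4.58%, beside 6.32% of all tested probe sets) and for 11 that were lower (8.40%, beside 4.32%). Without sham replicate 1, whose low signals were higher, 4 genes were lower and 2 higher, beside 1.21% and 3.3% of all tested probe sets, and the median was -0.10, beside 0.04. Without sham replicate 3, 12 genes were lower and 3 higher, beside 8.32% and 4.0%. Leaving out BDL replicate 3 gave 3 lower genes, and leaving out BDL replicate 12 gave 6 higher genes. The unadjusted calls in both directions over all tested probe sets, 552 with 6 arrays, were 308 and 476 in these fits.

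The median difference of the carrier genes was negative at each signal level, but the BDL and sham arrays overlapped at each level. For the 47 tested genes with a mean log2 signal under 9 the median difference was -0.28, beside -0.13 over the 3414 tested probe sets in that range. It was -0.04 for 45 genes between 9 and 11, beside 0.02, and -0.08 for 39 genes over 11, beside 0.04. Between 9 and 11 the median deviation from the 6-array means was 0.02, -0.19 and 0.11 on BDL replicates 1, 12 and 3. It was 0.13, 0.09 and -0.03 on sham replicates 1, 2 and 3. Over 11 it was -0.02, -0.05 and -0.10 on the BDL arrays and -0.11, 0.16 and 0.14 on the sham arrays, in the same order. On sham replicate 1 the median deviation of the dim carrier genes from their own 6-array mean was 0.49, and on sham replicate 3 it was -0.29. The part of these arrays in the lower counts was not tested beyond the values without them.

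**Figure D1:**
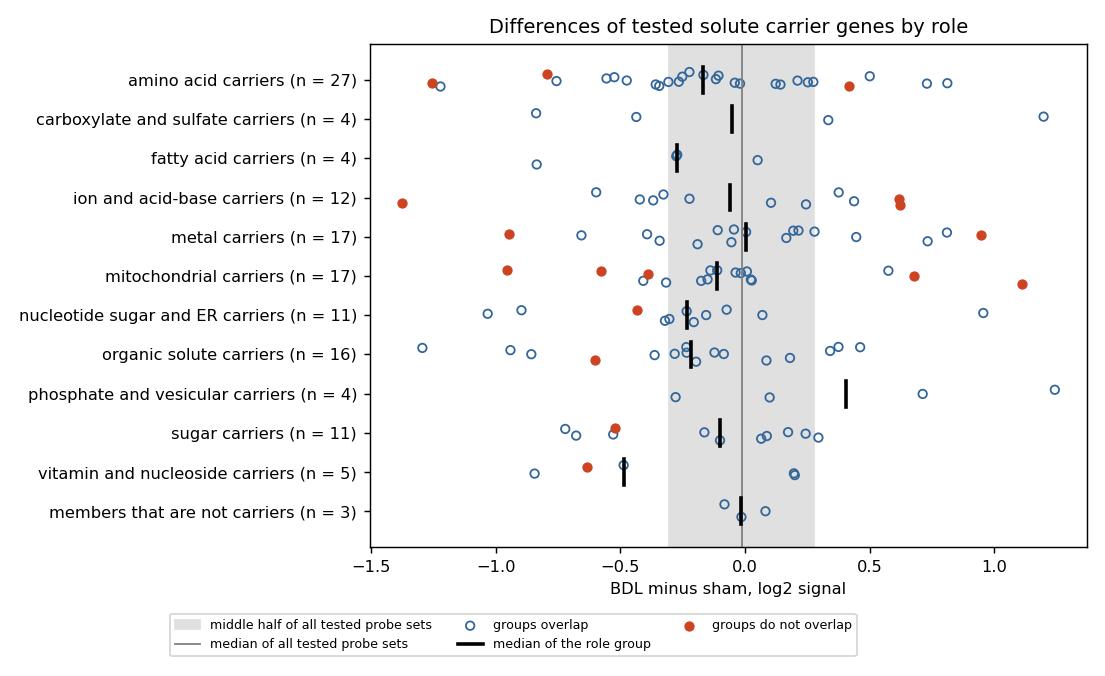
BDL minus sham difference in log2 signal (x axis) of each of the 131 tested solute carrier genes, arranged by what the carrier moves (y axis). Filled points are the 17 genes whose BDL and sham signals did not overlap, black bars are group medians, and the grey band and line are the interquartile range and the median of all tested probe sets. Most group medians lie at or left of the line, and single genes reach -1.37 (Slc4a3) and 1.24 (Slc20a1).

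The 250 bases before the annotated start are shown for the pair of genes with the smallest unadjusted p in each direction, since the results below turn on these genes. Sequences are RefSeq, build GRCm38.p6, written 5′ to 3′ along the gene, and capitals mark matches on either strand to the CCAAT box, to GGGCGG (the GC box) or to CACGTG (the E-box). The TATA box was searched as TATAAA, the nuclear receptor element as AGGTCA, the AP-1 element as TGANTCA and the C/EBP element as TTGCNNAA. These were read on both strands too and had no match in these windows.
Higher in BDL, Slc25a4 promoter, chr8:46211063-46211312, minus strand: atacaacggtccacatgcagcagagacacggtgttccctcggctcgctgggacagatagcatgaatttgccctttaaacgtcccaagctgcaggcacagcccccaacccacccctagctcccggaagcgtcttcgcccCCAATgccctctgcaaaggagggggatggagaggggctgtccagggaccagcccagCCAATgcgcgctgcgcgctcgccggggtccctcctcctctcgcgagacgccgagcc
Higher in BDL, Slc16a1 promoter, chr3:104638414-104638663, plus strand: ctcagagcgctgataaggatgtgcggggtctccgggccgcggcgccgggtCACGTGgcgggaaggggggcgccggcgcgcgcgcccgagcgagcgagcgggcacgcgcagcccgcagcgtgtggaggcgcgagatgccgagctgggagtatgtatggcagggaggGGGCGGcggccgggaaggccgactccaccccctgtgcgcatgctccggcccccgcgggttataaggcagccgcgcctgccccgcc
Lower in BDL, Slc4a3 promoter, chr1:75546212-75546461, plus strand: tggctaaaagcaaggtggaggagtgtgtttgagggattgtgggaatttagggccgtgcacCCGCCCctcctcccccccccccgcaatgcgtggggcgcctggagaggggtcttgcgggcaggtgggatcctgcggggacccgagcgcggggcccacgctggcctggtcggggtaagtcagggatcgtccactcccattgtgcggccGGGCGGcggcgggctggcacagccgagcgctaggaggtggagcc
Lower in BDL, Slc7a8 promoter, chr14:54781887-54782136, minus strand: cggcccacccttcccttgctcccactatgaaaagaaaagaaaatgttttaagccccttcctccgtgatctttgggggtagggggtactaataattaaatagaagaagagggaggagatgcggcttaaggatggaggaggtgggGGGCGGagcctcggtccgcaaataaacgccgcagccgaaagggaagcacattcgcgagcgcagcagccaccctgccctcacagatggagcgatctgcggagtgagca
The Slc25a4 window held 2 CCAAT matches. The Slc4a3 window held GC boxes at -190 on the minus strand and at -44 on the plus strand, counted from the annotated start. The windows of Slc16a1 and Slc7a8 each held a GC box, with an E-box in that of Slc16a1. Matches of the searched motifs did not overlap each other in these windows. Of the 150 genes, 123 had at least 1 promoter in the table, 173 in all. A GC box was found in 55.5% of these, beside 52.8% of the 8409 promoters of genes named on the array, and a CCAAT box in 27.2%, beside 34.6%. An E-box stood in 12.1%, beside 8.22%. TATAAA was found in 5.2%, beside 8.93%, AGGTCA in 14.5%, beside 11.9%, TGANTCA in 5.2%, beside 5.54%, and TTGCNNAA in 8.09%, beside 8.62%. A match describes letters in a window and is no binding site.

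Carriers of bicarbonate and other ions held the gene with the lowest p of all 131. Slc4a3, a chloride-bicarbonate exchanger, had signals of 297, 261 and 275 in BDL mice (here and below always replicates 1, 12 and 3, in this order) against 989, 706 and 533 in sham mice (replicates 1, 2 and 3). The groups did not overlap, and sham replicate 1 was the highest array. The difference was -1.37 (SE 0.32), 2.59-fold lower in BDL, with a limma adjusted p of 0.667, and it was -1.14 without sham replicate 1. Slc4a4, the sodium-bicarbonate cotransporter, went the other way, with signals of 1361, 1202 and 1550.3 in BDL and 1009.6, 807 and 860.5 in sham mice. All 3 BDL signals lay above all sham signals, and the difference was 0.62 (SE 0.28). Slc8a1, a sodium-calcium exchanger, had 295, 231 and 192 in BDL and 153, 86.2 and 38.9 in sham mice. Its groups did not overlap either, but 2 sham arrays were at the floor and the difference of 0.62 (SE 0.29) is understated by it. Over the 12 tested ion and acid-base carriers, 6 were positive and the median was -0.06. Slc4a1, the anion exchanger of red cells, was named after its values were seen and differed by -0.37 (SE 0.39). The erythroid markers measured beside it, 3 of 6 on the array, summed to signals between 17815 and 19096 in BDL and between 8044 and 21159 in sham mice. Epb42 among them was not tested, at 59.4 to 266.1, and the part of these markers was not tested.

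**Figure D2:**
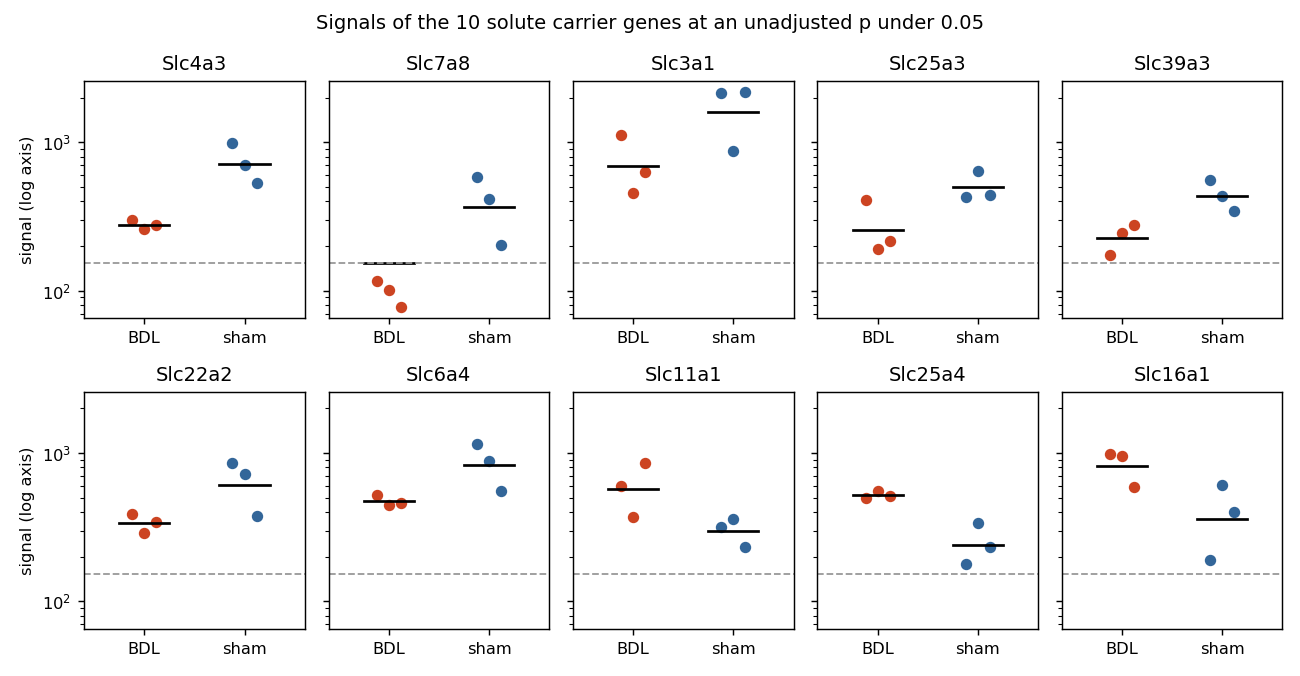
Signal on a log axis for the 10 solute carrier genes at an unadjusted limma p under 0.05, with 1 point per mouse, 3 BDL (left) and 3 sham (right). Black lines are geometric means after the floor and the dashed line is the floor of 152.7. Slc4a3, Slc7a8, Slc25a3, Slc39a3 and Slc6a4 lie lower in BDL and Slc25a4 and Slc11a1 higher without overlap, and the groups of Slc3a1, Slc22a2 and Slc16a1 overlap.

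Amino acid and neurotransmitter carriers were the largest group, with 32 genes and 27 tested. The median was -0.17 and 9 differences were positive. At an unadjusted p under 0.05, 3 of these genes (11.1%) were lower and 0 higher, beside 2.39% and 3.4% of all tested probe sets. Without sham replicate 1, the unadjusted limma p of these 3 was 0.039 for Slc7a8, 0.096 for Slc3a1 and 0.117 for Slc6a4. Slc7a8, a light chain that exchanges large neutral amino acids, had signals of 116, 101 and 77.0 in BDL and 582, 414 and 202 in sham mice. Every BDL array was at or under the floor, so it was at least 2.39-fold lower in BDL (difference -1.26, SE 0.40). The floor set its BDL spread to 0, which can lower its p. Without sham replicate 1 the difference was -0.92, at the same floor. Slc3a1, the heavy chain of the cystine and dibasic amino acid exchanger, had 1123, 456 and 635 in BDL and 2145, 877 and 2189 in sham mice. BDL replicate 1 overlapped with sham replicate 2, and the difference was -1.22 (SE 0.47). Its light chain partner Slc7a9, named after its values were seen, differed by -0.04 (SE 0.36).

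Slc3a2 is the heavy chain that carries Slc7a8 and other light chains to the plasma membrane. Its signals were 3484, 15462 and 6877 in BDL and 3869, 5078 and 4129 in sham mice. BDL replicate 12 was far above the other arrays, BDL replicate 1 lay below all sham arrays, and the difference was 0.73 (SE 0.50). Without BDL replicate 12 it was 0.18. The light chains Slc7a5 and Slc7a7, both named after their values were seen, differed by -0.36 (SE 0.30) and 0.81 (SE 0.56), the latter 1.47 without BDL replicate 12. Estimates for the heavy chain and these light chains had both signs, with groups that overlapped for Slc3a2.

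Slc6a4, the serotonin transporter, had signals of 522, 445 and 464 in BDL and 1143, 885 and 556 in sham mice. The groups did not overlap, and the difference was -0.80 (SE 0.34), or -0.56 without sham replicate 1. Its probe set is of a kind that can also detect related sequences, and its other probe set was not tested. Slc6a13, a carrier of taurine and GABA in hepatocytes, had 17702, 12679 and 15879 in BDL and 10878, 12284 and 11202 in sham mice. All BDL signals were above all sham signals by a small margin, with a difference of 0.42 (SE 0.28). Its neighbour on the chromosome Slc6a12, a betaine carrier named after its values were seen, differed by -0.25 (SE 0.33). The taurine carrier Slc6a6 differed by 0.50 (SE 0.37) on its brighter probe set, or 0.85 without BDL replicate 12, and by -0.25 (SE 0.56) on the other. The system A and related carriers of family 38 had 4 genes tested, of which Slc38a2 differed by -0.22 (SE 0.41) and Slc38a4 by 0.12 (SE 0.33). Glutamate carrier Slc1a2 differed by -0.17 (SE 0.41).

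Mitochondrial carriers, taken as family 25, had 20 genes and 17 tested, with 6 positive and a median of -0.11. These counts include Slc25a17, a peroxisomal member of the family. Slc25a4, an ADP/ATP exchanger, had signals of 497, 552 and 514 in BDL and 179.6, 337 and 232 in sham mice. The BDL arrays were close together and all above the sham arrays, and the difference was 1.11 (SE 0.32), 2.16-fold higher, with a limma adjusted p of 0.827. It was 0.90 without sham replicate 1. The related exchanger Slc25a5, named after its values were seen, had 3 probe sets with differences of -0.15 (SE 0.32), -0.82 (SE 0.39) and -0.73 (SE 0.59). The first of these, on the brightest probe set, was 0.01 without sham replicate 1. Near-identical copies of Slc25a5 make its values uncertain. Slc25a3, the phosphate carrier that supplies ATP synthase, had 406, 192 and 215 in BDL and 428, 643 and 443 in sham mice. The groups did not overlap, although BDL replicate 1 came close to the lowest sham signal, and the difference was -0.95 (SE 0.37).

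Slc25a15, which exchanges ornithine and citrulline for the urea cycle, had 17431, 10835 and 20129.8 in BDL and 20538, 26769.9 and 23009.6 in sham mice. All BDL signals were below all sham signals. BDL replicate 12 was the lowest, the difference was -0.58 (SE 0.33), and it was -0.31 without that array. Slc25a44, a branched-chain amino acid carrier, differed by -0.39 (SE 0.27) with signals between 959 and 1128 in BDL and between 1286 and 1494 in sham mice. Slc25a36, a pyrimidine nucleotide carrier, had 189.9, 410.1 and 203 in BDL and 118, 70.3 and 165 in sham mice, with 2 sham arrays at the floor. Its groups did not overlap, and the difference of 0.68 (SE 0.36) was 0.32 without BDL replicate 12.

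The other mitochondrial carriers named here had overlapping groups. Slc25a20, the carnitine-acylcarnitine carrier of fatty acid oxidation, differed by -0.32 (SE 0.29). Citrate carrier Slc25a1 differed by -0.02 (SE 0.32) on its brighter probe set and by -0.43 (SE 0.34) on the other. Dicarboxylate carrier Slc25a10 differed by 0.01 (SE 0.33) and Slc25a39, a glutathione carrier, by 0.02 (SE 0.29). Slc25a25, an ATP-magnesium carrier, differed by -0.14 (SE 0.40). The liver-enriched Slc25a47 had signals of 36531, 112565 and 42832 in BDL and 18343, 92910.5 and 31217 in sham mice. BDL replicate 12 and sham replicate 2 were both high, so the spread within each group exceeded the difference of 0.58 (SE 0.64), which ranged from 0.06 (sham replicate 1 left out) to 1.23 (sham replicate 2 left out).

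Metal carriers were balanced, with 17 of 17 genes tested, 9 positive and a median of 0.00. Slc39a3, a zinc importer, had signals of 174, 243 and 275 in BDL and 558, 432 and 346 in sham mice. The groups did not overlap, and the difference was -0.95 (SE 0.32), or -0.77 without sham replicate 1. The hepatocyte zinc and metal importer Slc39a8 differed by -0.39 (SE 0.33), or -0.13 without sham replicate 1, and the zinc exporter Slc30a1 by -0.04 (SE 0.33), both with overlapping groups. Copper importer Slc31a1, named after its values were seen, differed by -0.66 (SE 0.44) on its brighter probe set, or -0.23 without BDL replicate 12, and by -0.67 (SE 0.28) on the other. That other probe set had 3736, 3151 and 3405 in BDL and 5015, 5049 and 6350.2 in sham mice, with no overlap.

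Slc11a1, a divalent metal carrier of the phagosome in macrophages, had signals of 595, 369 and 861 in BDL and 315, 360.2 and 232 in sham mice. All BDL signals were above all sham signals, BDL replicate 12 only by a little, and the difference was 0.95 (SE 0.38). Leaving out BDL replicate 3 gave 0.66, and leaving out BDL replicate 12 gave 1.27. Macrophage and Kupffer cell markers had 7 of 7 genes on the array, 6 tested and 5 positive, with a summed signal between 9807 and 34810 in BDL and between 3404 and 9656 in sham mice, and a median difference of 0.87. The highest sums were mostly Cd14, at 29691.9 on BDL replicate 12 and 15816.4 on BDL replicate 3. Without Cd14 the sums were between 5118.6 and 7934.3 in BDL and between 2227.6 and 5088.7 in sham mice. Of the 7 markers, Marco was above the floor on 2 arrays, BDL replicates 1 and 3, and the rest on at least 4. Their part in the Slc11a1 difference was not tested. Its relative Slc11a2, an iron carrier of many cells, differed by 0.00 (SE 0.40), with signals between 1304 and 3703 in BDL and between 2136 and 2286 in sham mice. Slc48a1, a heme carrier, had 3730.4, 1602 and 2529 in BDL and 1417, 1608 and 1445 in sham mice. BDL replicate 12 was level with sham replicate 2, and the difference was 0.73 (SE 0.36), or 0.44 without BDL replicate 1.

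Carriers of lactate and other carboxylates included Slc16a1, the monocarboxylate transporter of lactate, pyruvate and ketone bodies. Its signals were 987, 961 and 588 in BDL and 190.4, 605 and 400.1 in sham mice. BDL replicate 3 lay just under sham replicate 2, sham replicate 1 was the lowest array, and the difference was 1.20 (SE 0.45), 2.29-fold higher. Without sham replicate 1 it was 0.74. Its membrane partners differed by -0.20 (SE 0.28) for Bsg, named after its values were seen, and by -0.87 (SE 0.42) for Emb. Emb had 2 BDL arrays and 1 sham array at the floor. The related Slc16a7 differed by 0.33 (SE 0.32), or 0.18 without sham replicate 1. Slc16a8 differed by -0.84 (SE 0.47), with BDL replicates 1 and 3 under the floor. It was -1.35 without BDL replicate 12, where the remaining BDL values were set by the floor. Sulfate carrier Slc26a1 had 1164, 127 and 192 in BDL and 347, 138 and 1592 in sham mice, a spread within groups that left a difference of -0.44 (SE 0.96), which turned to 0.49 without sham replicate 3.

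Sugar carriers had 11 of 11 genes tested, 5 positive and a median of -0.10. The group was filled by family number and includes Slc5a6, a multivitamin carrier named after its values were seen. Its difference of 0.29 was the highest of the group. Slc2a2, the glucose uniporter of the hepatocyte, had signals of 14738, 1705 and 13109 in BDL and 7853, 6483 and 7964 in sham mice. BDL replicate 12 was below every sham array while the other two BDL arrays were above all of them, and the difference was -0.10 (SE 0.74). Without BDL replicate 12 it was 0.91. Slc2a8, an intracellular hexose carrier, had 1596, 1892 and 1503 in BDL and 2764, 2213 and 2186 in sham mice, without overlap, and differed by -0.52 (SE 0.28). Slc2a3, a glucose carrier of neurons and leukocytes, differed by -0.72 (SE 0.37) and Slc5a11, a sodium-coupled inositol carrier, by -0.53 (SE 0.42), or -0.12 without sham replicate 1. The glucose 6-phosphate carrier of the ER, Slc37a4, had overlapping groups and differed by 0.09 (SE 0.47), or -0.44 without sham replicate 1.

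**Figure D3:**
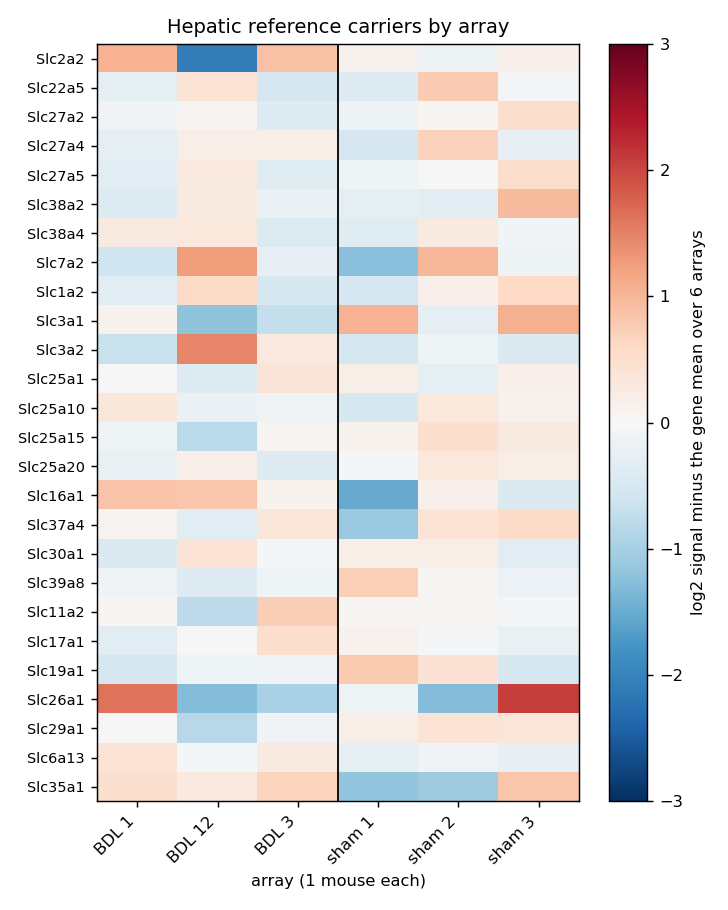
Log2 signal minus the mean over 6 arrays (colour, from -3 to 3) of the 26 tested reference carriers of the liver (rows) on each array (columns), with BDL left and sham right of the black line. Slc25a15 and Slc29a1 lie lower and Slc6a13 higher in BDL without overlap, and the groups of the others overlap. Slc2a2 is low on BDL replicate 12, and Slc7a2 is high on BDL replicate 12 and sham replicate 2.

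Organic ion, choline and bile acid carriers had 16 of 18 genes tested, with 5 positive and a median of -0.21. Slc22a2, an organic cation carrier, had signals of 389.9, 289 and 343 in BDL and 857, 718 and 373 in sham mice. BDL replicate 1 overlapped with sham replicate 3, and the difference was -0.86 (SE 0.37), or -0.61 without sham replicate 1. Slc22a17, known as a receptor for lipocalin 2, had 499, 734 and 484 in BDL and 948, 888 and 738 in sham mice. BDL replicate 12 lay just under sham replicate 3, and it differed by -0.60 (SE 0.30). Slc44a1, a choline carrier, had 1003, 104 and 824 in BDL and 1280.3, 1598 and 910.2 in sham mice, with BDL replicate 12 far below the rest and a difference of -1.29 (SE 0.66), or -0.44 without that array. Carnitine carrier Slc22a5 differed by -0.23 (SE 0.40). Named after their values were seen, the ileal-type bile acid importer Slc10a2 differed by 0.38 (SE 0.43) and Slc51a, a subunit of the basolateral bile acid exporter, by -0.36 (SE 0.38), both with overlapping groups.

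Fatty acid carriers of family 27 had 4 of 5 genes tested and a median of -0.27. The liver acyl-CoA synthetases of this family differed by -0.28 (SE 0.31) for Slc27a2, which activates very long chain fatty acids, and by -0.27 (SE 0.33) for Slc27a5, which activates bile acids. Slc27a4 differed by 0.05 (SE 0.38) and Slc27a1, dim here, by -0.84 (SE 0.42). The groups of these 4 genes overlapped.

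Nucleotide sugar and ER carriers had 11 of 11 genes tested, 2 positive, and a median of -0.23. Slc35b2, which brings the sulfate donor PAPS into the Golgi, had 2514, 1902 and 2198 in BDL and 3258, 2817 and 2818 in sham mice. The groups did not overlap, and the difference was -0.43 (SE 0.28). Slc35a1, the CMP-sialic acid carrier, had 621, 544 and 709 in BDL and 196, 212 and 789.9 in sham mice. Sham replicate 3 was the highest array and the other sham arrays the lowest, and the difference was 0.96 (SE 0.52). Leaving out sham replicate 1 gave 0.60, and leaving out sham replicate 3 gave 1.61. Slc35a4 differed by -1.03 (SE 0.66) and Slc35g3 by -0.90 (SE 0.51), with sham replicate 1 the highest array for both. Without that array they differed by -0.33 and -0.34.

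Vitamin and nucleoside carriers, counted without Slc5a6, had 5 of 7 genes tested and a median of -0.49. Slc29a1, the equilibrative nucleoside transporter, had signals of 5319.6, 3041 and 4979 in BDL and 6123, 7125 and 6900.2 in sham mice. The groups did not overlap, BDL replicate 12 was the lowest, and the difference was -0.63 (SE 0.32), or -0.38 without that array. A second, dimmer Slc29a1 probe set differed by 0.41 (SE 0.37). Folate carriers differed by -0.84 (SE 0.51) for Slc46a1, or -0.44 without BDL replicate 12, and by -0.49 (SE 0.38) for Slc19a1, or -0.22 without sham replicate 1. Slc23a1, an ascorbate carrier, was not tested.

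Phosphate carriers were few. Slc20a1, a sodium-phosphate cotransporter, had signals of 3517, 2619.7 and 5605 in BDL and 714, 3643 and 1495 in sham mice. Sham replicate 2 lay among the BDL arrays, and the difference was 1.24 (SE 0.57). Without sham replicate 1, its lowest array, it came to 0.67, and without sham replicate 2 it was 1.85. Slc34a2, another sodium-phosphate cotransporter, had 2743 on BDL replicate 12 and 84.3 to 408 on the other arrays, and differed by 0.71 (SE 0.98), which turned to -0.60 without BDL replicate 12. Slc17a1, an organic anion and phosphate carrier of hepatocytes, differed by 0.10 (SE 0.32) on its brighter probe set and by 0.76 (SE 0.45) on the other. That other probe set had 538, 769 and 562 in BDL and 181, 533 and 499 in sham mice, just without overlap. Slc34a1 differed by -0.28 (SE 0.39).

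The 3 members that are not carriers differed by -0.08 (SE 0.33) for Slc9a3r1, -0.01 (SE 0.43) for Slc9a3r2 and 0.08 (SE 0.34) for Slc4a1ap. Without them the median of the tested genes was -0.13.

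The reference list of liver carriers had 26 of 27 genes on the array tested, 11 positive, a median of -0.07, with Slc16a1 higher and Slc3a1 lower at the unadjusted threshold. Over all tested probe sets, 3.4% were higher and 2.39% lower at that threshold, shares that also stand beside the lists below. Genes that work with solute carriers were read from 3 further lists. Pumps that set the sodium and proton gradients had 11 of 13 genes on the array tested, 6 positive, a median of 0.00, and 0 genes past the unadjusted threshold. Of these, Fxyd5, a regulator of the sodium pump, differed by 0.66 (SE 0.37) and the pump subunit Atp1b1 by -0.40 (SE 0.30). The counts and median of this list include Atp2a2, a calcium pump, which differed by 0.52 (SE 0.35). Carrier partners and scaffolds had 11 of 11 tested, 6 positive, a median of 0.11, and 1 gene higher and 0 lower past it. Msn, the membrane-cytoskeleton linker moesin, had 1713.6, 1279.5 and 1091.9 in BDL and 830.7, 879 and 444 in sham mice. Its groups did not overlap, and the difference was 0.96 (SE 0.36). Nedd4l, from the same list, differed by 0.64 (SE 0.29), also without overlap. Of all tested probe sets, 6.32% were higher without overlap. Carriers, channels such as aquaporins, and related proteins with other symbols had 13 of 14 tested, 4 positive, a median of -0.14 and 0 past it. The water and glycerol channel Aqp9 differed by -0.74 (SE 0.47), and the ammonium channel Rhag of red cells by -0.79 (SE 0.40). Slco3a1 and Sfxn1 went the other way, by 0.64 (SE 0.36) and 0.50 (SE 0.31). The groups of these genes overlapped.

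The 11 carrier groups were set beside each other on single arrays by the median deviation of their tested genes from each gene's 6-array mean. For mitochondrial carriers it was -0.03, 0.09 and -0.12 in BDL and -0.04, 0.31 and 0.14 in sham mice. For sugar carriers it was 0.07, -0.37 and 0.34 in BDL and 0.48, -0.07 and -0.05 in sham mice. The BDL and sham arrays overlapped in both groups. Nucleotide sugar carriers had -0.07, -0.24 and 0.08 in BDL and 0.23, 0.15 and 0.04 in sham mice, with BDL replicate 3 above sham replicate 3.

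**Figure D4:**
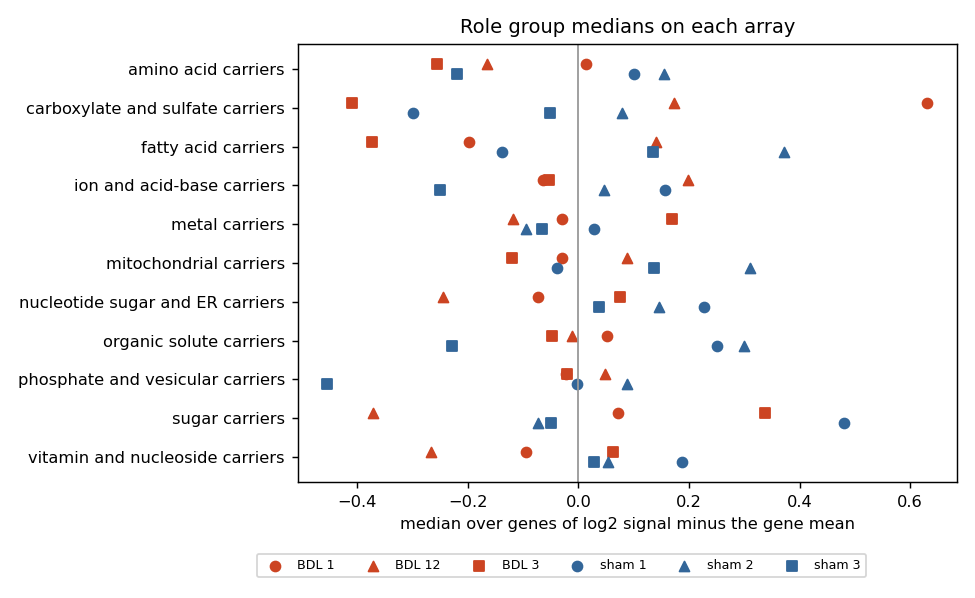
Median over tested genes of log2 signal minus each gene's mean over 6 arrays (x axis), for each carrier group (y axis), with BDL arrays in red and sham arrays in blue and 1 marker shape per position in the labels. The red and blue markers overlap in each of the 11 groups.

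Of 28 genes with several probe sets, 19 had at least 2 tested, and in 8 of these the signs disagreed. Besides Slc6a6 and Slc29a1 these were Slc11a2 (0.00 and -0.28), Slc23a3 (0.20 and -0.16), Slc30a4 (0.45 and -0.88), Slc35e1 (-0.23 and 0.63), Slc39a1 (-0.19 and 0.43) and Slc39a4 (-0.11 and 0.05), with the representing probe set first. The 19 genes not tested included, named after their values were seen, Slc7a11, the cystine-glutamate exchanger, with 423.5 on sham replicate 1 and 25.1 to 113.6 on the other arrays, and Slc7a1, a cationic amino acid carrier, with 20.2 to 142.7. Of the 19, 5 were at or under the floor on all 6 arrays, which leaves a difference unmeasured.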

How the data were processed

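Liver RNA of 3 BDL and 3 sham mice was hybridised to Affymetrix U74Av2 arrays with 20 µg cRNA each, per the series' design text. The authors used MicroArray Suite and GeneChip expression analysis software, per the same text. Their settings, background handling and scaling target: not given in the sources used here. Deposited values are linear intensities, 1 per probe set and array. The 2% trimmed means were equal, so arrays were not rescaled. Detection calls and scanner files were not used, and the number of arrays limits the precision. Groups and replicate numbers came from the sample titles.

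Signals were raised to the floor, log2 was taken, and probe sets with at least 3 of 6 arrays above the floor were tested with limma 3.58.1 (lmFit and eBayes, R 4.3.3, no covariates, 4 residual and 4.67 prior degrees of freedom). P-values were adjusted by Benjamini-Hochberg over 9542 probe sets with a threshold of 0.05. Of 12488 probe sets, 66 were controls, 396 had several gene symbols and 1193 none, and neither kind was given a name. The platform annotation gave the symbols, and 182 of 182 member gene identifiers matched RefSeq genes of GRCm38.p6. The fit was tested on simulated data.

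Members, carrier groups and lists were chosen with earlier results of these data known. Genes were named if they had an unadjusted p under 0.05 or non-overlapping groups, were among the 10 brightest, among 3 per carrier group with the smallest p, in a list of liver carriers, or had probe sets of opposite sign. Up to 4 genes with the smallest p were taken from each other list, and further carriers are marked where named. Signals of different genes are not compared. The labels name no batch. Alternatives were quantile normalization, equal trimmed means, floors at the 10th and 40th percentile, an added constant of 100, testing without the low-signal filter or with it at the 50th percentile, array weights, eBayes with a trend or made robust, leaving out each array, the replicate number as a block, and all member probe sets.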

Additional observations from a re-analysis of the deposited data

How the results depend on the processing

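No solute carrier gene had a limma adjusted p under 0.05 in any alternative run, with lowest adjusted p from 0.251 (array weights) to 0.998 (without BDL replicate 3). Over all tested probe sets the adjusted count was 0, and 3 with no filter on low signals, which also tests more probe sets. The count of genes higher in BDL at an unadjusted p under 0.05 was 3, and became 5 with an added constant, 5 after quantile normalization, 5 at either other floor and 8 with array weights. The unadjusted calls in both directions, 552 of 9542 tested probe sets, were 551 of 9542 with an added constant and 637 of 9671 after quantile normalization. They were 1023 of 9542 with array weights. At the lower and higher floor they were 613 of 11493 and 435 of 7593, and 143 and 109 carrier genes were tested there. The count of lower genes was 7 of 131, and became 4 of 109 with the floor at the 40th percentile and 3 of 90 with the filter at the 50th. That filter left 362 calls over 6338 tested probe sets. Leaving out each array gave 2 to 6 higher and 3 to 12 lower genes, beside 308 to 1176 calls over all tested probe sets. The median difference stayed between -0.17 and -0.05 under the alternatives run. Among 66 named genes, 1098 alternative values held 0 sign reversals of a difference larger than its SE, and 43 moved by more than that SE. Among the 28 genes whose difference was no larger than its SE, 69 such values changed sign. Of the 131 tested genes, 78 kept their sign whichever array was left out. The median of the phosphate and vesicular carriers, 0.41 over 4 genes, reached 0.78 without BDL replicate 1. It was -0.066 without BDL replicate 12. The causes were not tested. Dim signals limit the 19 genes not tested.

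Replicate numbers 1 and 3 are shared by both groups in the labels, which state no pairing. Deviations from the group means correlated at 0.209 and 0.246 in these pairs, too few to treat the numbers as pairs. In the fit with the replicate block, BDL replicate 12 and sham replicate 2 share no number with another array. They add nothing to its differences, which rest on replicates 1 and 3 of each group. With this block, 8 genes were higher and 5 lower, beside 651 calls over all tested probe sets. The median of the solute carrier genes was -0.07, and that of the phosphate and vesicular carriers was -0.091.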

Other observations

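Several carriers were high on BDL replicate 12 and sham replicate 2 together, across the groups; they were picked after their values were seen. The cationic amino acid carrier Slc7a2 had signals of 5379, 19403 and 6786 in BDL and 3378, 16147 and 7335 in sham mice, in the order used above. The potassium-chloride cotransporter Slc12a4 had 1688, 2831 and 1586 in BDL and 1214, 2399 and 1189.6 in sham mice.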
